A study of Homo sapiens with 2 samples.

Results

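The 4 catalytic deadenylase genes of the CCR4-NOT complex, CNOT7, CNOT8, CNOT6 and CNOT6L, were followed through the peak lists of both libraries. Their peaks were taken by Ensembl gene identifier, matched to gene symbols in GENCODE release 29. They were 4 of the 20048 gene identifiers in the lists. They held 55 of the 100792 listed peaks in replicate 1 and 52 of 109413 in replicate 2. Every member had peaks, so none was lost to the listing. CNOT7 carried peaks over nearly all of its coding sequence (CDS) and almost none outside it, whereas its paralogue CNOT8 carried scattered peaks in the CDS and both untranslated regions (UTRs). CNOT6 carried most of its reads in scattered peaks of its 3′ UTR, which makes up 66.7% of its transcript, the last peak near the far end. CNOT6L carried peaks almost only in the first part of its 3′ UTR.

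The series asked which stretches of RNA associate with CCR4-NOT, and it held 2 libraries of a single group labelled TRACER. Both were made from cytoplasmic RNA of HEK293T, an established human embryonic kidney line grown in DMEM with 10% FBS. The cells had received doxycycline at 3 ug/mL for 24 hours, and the RNA was taken with Trizol into a Qiagen miRNA library. Doxycycline is often used to switch on a gene introduced into a cell line. The labels name no such gene here and leave the word TRACER unexplained. No untreated or input library was analysed here, so peak signal could not be set against the abundance of each RNA. Whether the replicates came from separate cultures is not stated, and their spread may be technical only.

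CCR4-NOT is the main complex that shortens the poly(A) tails of messenger RNAs in the cytoplasm, which precedes their decay. CNOT7 and CNOT8, also called CAF1 proteins, are DEDD-type nucleases that dock on the scaffold subunit CNOT1. CNOT6 and CNOT6L, also called CCR4 proteins, are nucleases of another fold that join the complex through the CAF1 subunit by their leucine-rich repeats. Each complex is thought to hold a single CAF1 and a single CCR4 subunit, so the paralogues of a pair are alternatives to each other.

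On GRCh38, CNOT8 (ENSG00000155508) lies on the plus strand of chromosome 5 at 154857553 to 154876793, and CNOT6 (ENSG00000113300) on the same strand and chromosome at 180494412 to 180578405. CNOT6L (ENSG00000138767) lies on the minus strand of chromosome 4 at 77713387 to 77819615. A single representative transcript per gene was used. That of CNOT7 (ENSG00000198791) had 7 exons, a CDS of 858 nt and a 3′ UTR of 5756 nt, so that the CDS made up 12.4% of it. That of CNOT8 had 8 exons, a CDS of 879 nt and a 3′ UTR of 1353 nt. The CNOT6 transcript had 14 exons, a CDS of 1674 nt and a 3′ UTR of 4205 nt. The CNOT6L transcript had 12 exons, a CDS of 1668 nt and a 3′ UTR of 7044 nt.

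The sequences below are stretches of 30 nt from the highest regions that both libraries shared outside CNOT7, read in transcript sense from GENCODE 29 transcripts on GRCh38. They are shown because the values of CNOT8, CNOT6 and CNOT6L turn on them. The CNOT8 3′ UTR stretch is chr5:154875895-154875924 on the plus strand, and its capitals mark a match to UGUANAUA, the element that Pumilio proteins bind. In the other sequences the capitals mark the 4 nt summit in the library with more reads in the region, and the summit of the other library can lie elsewhere, for CNOT6L outside the stretch. The CNOT8 CDS stretch is chr5:154872564-154872593 on the plus strand. The CNOT6 stretches a to d, all in the 3′ UTR on the plus strand, are chr5:180575426-180575455, chr5:180575985-180576014, chr5:180576084-180576113 and chr5:180577979-180578008. The CNOT6L 3′ UTR stretch is chr4:77720367-77720396 on the minus strand.
CNOT8 3′ UTR: uucuuagguaauggguUGUAGAUAcugagu
CNOT8 CDS: ucaguuggauuugCAGAggauuggaaggca
CNOT6 3′ UTR a: gucgucagugucuUUUCcuuagucuuuuug
CNOT6 3′ UTR b: uuuuuguuuuuucUAGGauuucauugugau
CNOT6 3′ UTR c: acauuggaaagcuGGUAuugauguagaacc
CNOT6 3′ UTR d: aaguguaguuuguAUAGcuguaguacugag
CNOT6L 3′ UTR: cuauggaccuguaCAGUuguaaaucaaagu

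A region was counted as shared when peaks of both libraries overlapped by at least 1 nt on the same strand under the same gene. All 4 members had a shared region, as did 50.4% of all 19688 protein-coding genes of the annotation. All 4 also had at least 20 exonic reads in each library. Of the 6298 genes with both UTRs annotated that did, 6284 had a shared region. CNOT7 had 8 shared regions, CNOT8 had 6, CNOT6 had 9 and CNOT6L had 4. CNOT8, CNOT6 and CNOT6L had a shared region in the 3′ UTR, as did 27.3% of the 18946 protein-coding genes with an annotated 3′ UTR, and CNOT7 did not. Of the 6298 genes with at least 20 exonic reads in each library, 4237 had one. In CNOT7, 17 of 18 peaks in replicate 1 and 15 of 16 in replicate 2 overlapped a peak of the other library. In CNOT8 this held for 6 of 11 and 6 of 9 peaks, in CNOT6 for 9 of 21 and 9 of 16, and in CNOT6L for 4 of 5 and 6 of 11. The regions found in a single library were low, with at most 14 reads in CNOT7, 10 in CNOT8, 13 in CNOT6 and 6 in CNOT6L.

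Reads were next placed in the 5′ UTR, CDS or 3′ UTR by the summit of their peak, and shares were taken of the exonic reads with exact Clopper-Pearson 95% intervals, which cover counting error only. The intervals treat reads as independent, but a read may be counted in neighbouring peaks, so they can be too narrow. CNOT7 had 99.3% of its exonic reads in the CDS in replicate 1 (98.8% to 99.7%) and 100% in replicate 2 (99.8% to 100%). CNOT8 had 47.4% in replicate 1 (37.0% to 57.9%) and 32.0% in replicate 2 (23.2% to 42.0%). CNOT7 stood above CNOT8 in both libraries with intervals far apart. CNOT6 had 17.6% in replicate 1 (12.5% to 23.9%) and 27.4% in replicate 2 (21.2% to 34.3%). CNOT6L had 0% of 52 reads in replicate 1 (up to 6.85%) and 4.94% of 81 in replicate 2 (1.36% to 12.2%). The order CNOT7, CNOT8, CNOT6, CNOT6L was the same in both libraries, but the intervals of the neighbours CNOT8 and CNOT6 overlapped in replicate 2.

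**Figure D1:**
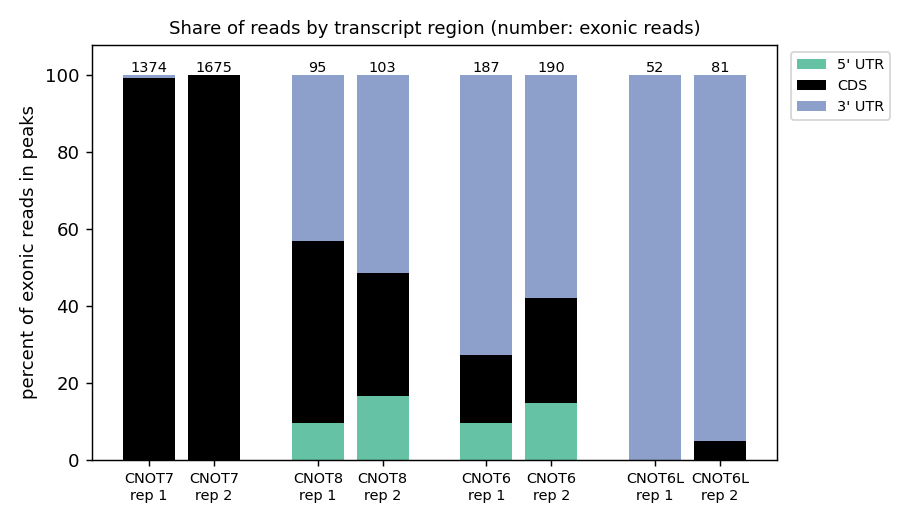
Stacked bars give the percent of exonic peak reads in the 5′ UTR, CDS and 3′ UTR of each member in each library (y axis, percent), with the number of exonic reads above each bar. CNOT7 is almost wholly CDS, with 99.3% and 100%, and CNOT6L almost wholly 3′ UTR, with 100% and 95.1%, while CNOT8 and CNOT6 hold all 3 regions in both libraries.

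The 5′ UTR also separated the members. CNOT8 had 9 and 17 reads there in replicates 1 and 2, and CNOT6 had 18 and 28. CNOT7 and CNOT6L had no peak summit in the 5′ UTR in either library. The median of the 6298 genes with at least 20 exonic reads in each library was 0% of exonic reads in the 5′ UTR, and CNOT8 and CNOT6 held 9.47% and 9.63% there in replicate 1 and 16.5% and 14.7% in replicate 2. No peak below 3 reads was listed, so a stretch without a peak is not shown to be free of reads.

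CNOT7, the more heavily covered CAF1 nuclease, lies on the minus strand of chromosome 8 at 17224964 to 17246878. It had peaks in all 6 of its coding exons in both libraries. Coding exon 1, which holds the start codon, was covered over 100% of its 117 coding nt in both libraries and held 184 and 178 reads in replicates 1 and 2. Coding exon 2 (194 nt) was covered at 82.5% and 91.8% and held 432 and 423 reads. Coding exon 3 (162 nt) was covered at 100% in both and held 358 and 517 reads. Reads over coding exon 2 came to 222.7 and 218 per 100 nt in replicates 1 and 2, and over coding exon 3 to 221 and 319, so exon 2 was the densest coding exon in replicate 1 and exon 3 in replicate 2. Coding exon 4 (145 nt) was covered at 100% in both and held 138 and 186 reads. Coding exon 5 (111 nt) was covered at 75.7% and 91.0% and held 196 and 296 reads, 177 and 266.7 per 100 nt. The coding part of the last exon (129 nt) was covered at 72.1% and 94.6% with 57 and 75 reads, which made it the sparsest coding exon in both libraries, at 44.2 and 58.1 reads per 100 nt.

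The coverage of CNOT7 began and ended near the edges of the CDS. The first covered coding base was nt 1 in both libraries, and the covered stretch reached 2 nt upstream of the start codon in replicate 1 and 5 nt in replicate 2. The last covered coding base was nt 847 in replicate 1 and nt 851 in replicate 2, which left 11 and 7 nt uncovered before the end of the CDS. The upstream exon, which is entirely 5′ UTR and 204 nt long, had no peak in either library. Of the 3′ UTR, which shares the last exon with the end of the CDS, a single peak of 9 reads was listed in replicate 1, at 411 nt after the stop codon, and none in replicate 2. The edges of the covered stretch thus lay within a few nt of each other in both libraries, at either end of the CDS.

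Inside the CNOT7 CDS, 4 gaps totalling 86 nt were left in replicate 1 and 2 gaps totalling 26 nt in replicate 2. Both gaps of replicate 2 were also uncovered in replicate 1. The first was CDS nt 118 to 134 in replicate 1 and 118 to 133 in replicate 2, and it starts exactly at the junction of coding exons 1 and 2. The longest was nt 704 to 754 in replicate 1, 51 nt across the last junction, of which nt 716 to 725 were uncovered in replicate 2 too. The summits of the highest peak of each library lay 1 nt apart, at CDS nt 658 with 196 reads in replicate 1 and nt 657 with 282 reads in replicate 2, in coding exon 5.

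**Figure D2:**
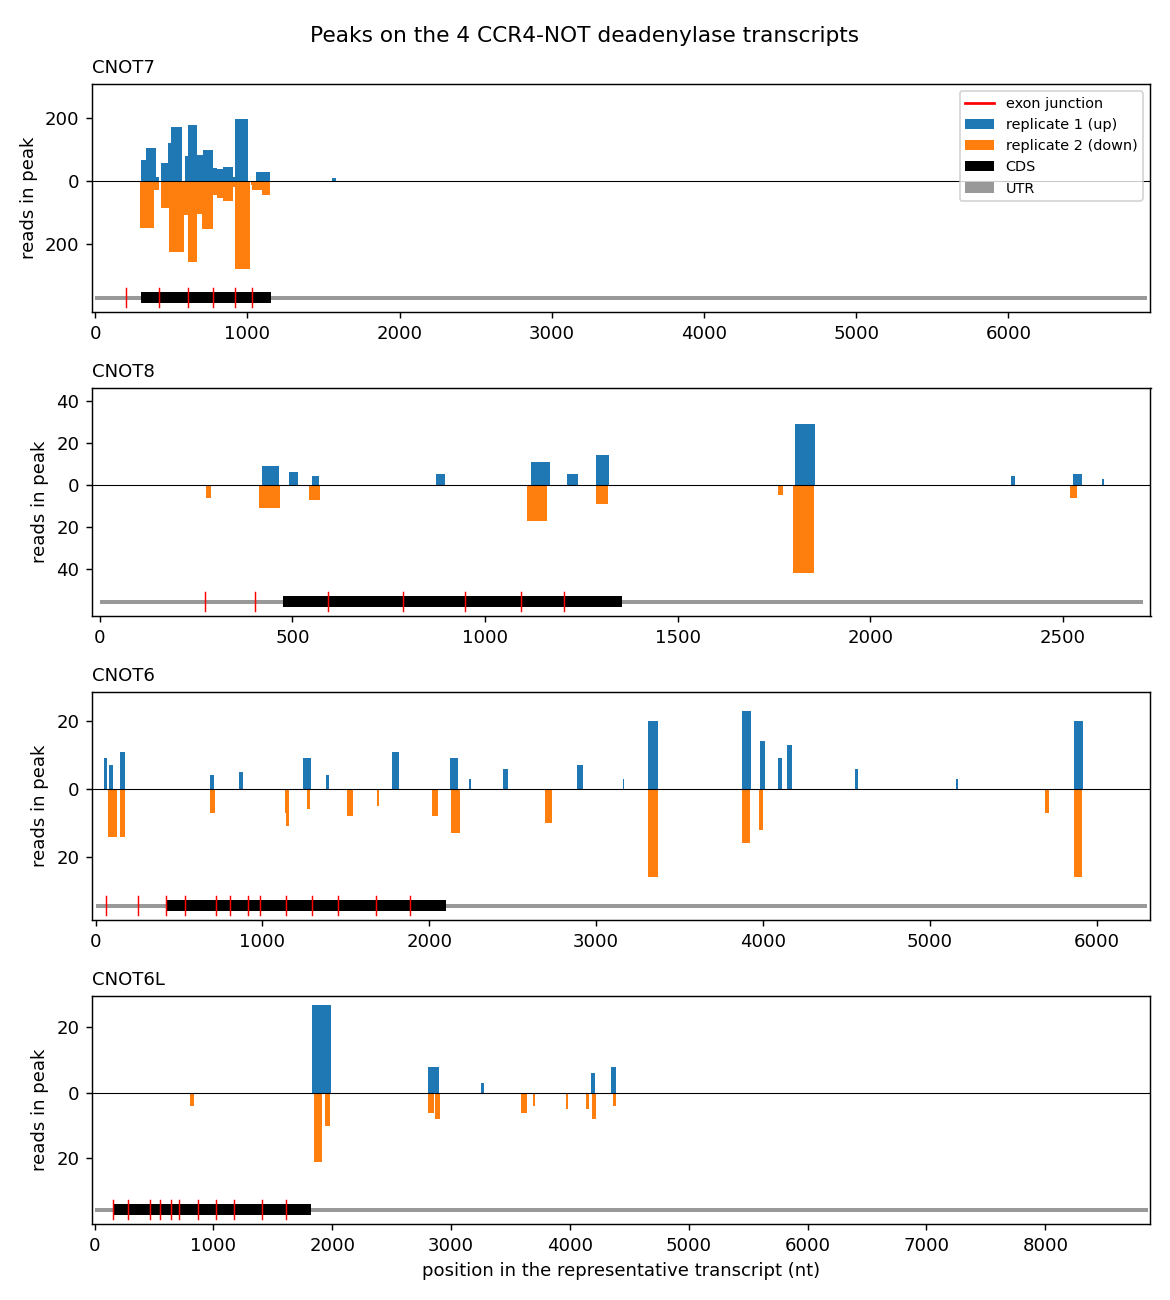
Each panel is a member's transcript from its 5′ end (x axis, nt), with each peak drawn to its width and number of reads (y axis, a different scale in each panel), replicate 1 upward and replicate 2 downward, above a bar of CDS (black), UTR (grey) and exon junctions (red). CNOT7 peaks fill the CDS and stop at its edges apart from a peak of 9 reads, CNOT6 peaks reach the far end of the 3′ UTR, and CNOT6L peaks end after 36.2% of the 3′ UTR in both libraries.

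The position of CNOT7 among other genes was described over the 6298 protein-coding genes with at least 20 exonic reads in each library, 34% of the 18504 with both UTRs annotated, a filter that all 4 members passed. At least 80% of CDS bases lay under peaks in both libraries in 0.873% of these genes, CNOT7 among them. At most 1% of exonic reads fell in the UTRs in both libraries in 6.67% of them, again with CNOT7 as the only member. Both held in 0.127%, which were 8 genes, namely CNOT7, RPL23, HIST1H3H, RPS27A, NME2, RPS15, RPL27 and RPL36A. The other 7 have a CDS of 321 to 471 nt and 3′ UTRs of 32 to 2265 nt. CNOT7, with 858 nt of CDS and 5756 nt of 3′ UTR, had the longest of both.

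Coverage can depend on the number of reads, so CNOT7 was also set beside genes with a like number of exonic reads. Of the 30 genes with exonic reads within 1.5 times those of CNOT7 in both libraries, CNOT7 included, the median CDS coverage was 52.8% in replicate 1 and 53.1% in replicate 2. CNOT7 had 88.7% and 96.2%. The 30 genes were matched on reads and not on CDS length, which is 858 nt in CNOT7. The median share of reads in both UTRs of these genes was 11.3% and 10.1%, against 0.655% and 0% in CNOT7. No other gene of the 30 was at or under 1% in both libraries. Of the 41 genes with at least 1000 exonic reads in both libraries, 3 were, namely CNOT7, RPS6 and TUBA1A. By reads per kb of CDS, CNOT7 had 1591 and 1952 and ranked 31st and 16th of the 6298 genes, whose medians were 28.6 and 36.4. By CDS coverage it ranked 31st and 14th, so its coverage stood about where its read density did. By reads per kb of 3′ UTR, CNOT7 had 1.56 and 0, against medians of 10.2 and 10.98. These ranks describe the libraries and were not tested, since the genes are not replicates.

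**Figure D3:**
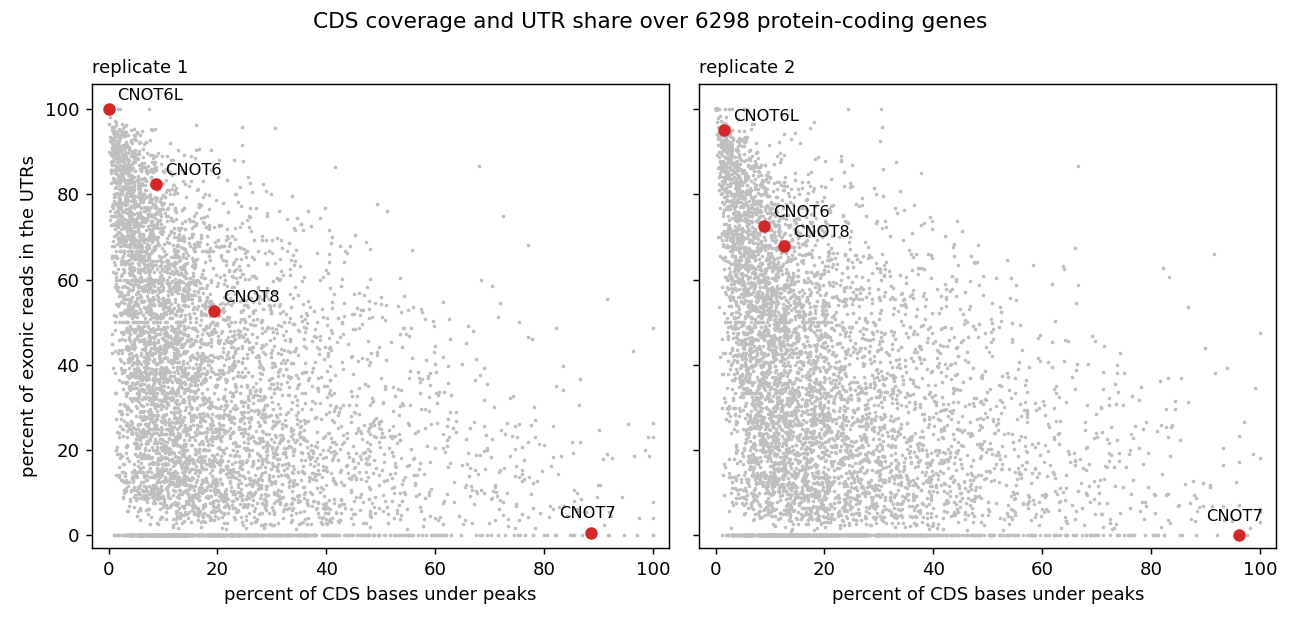
Each grey point is 1 of 6298 protein-coding genes, placed by the percent of CDS bases under peaks (x axis) and the percent of exonic reads in both UTRs (y axis), with a panel per library and the 4 members in red. CNOT7 lies in the lower right corner at 88.7% and 96.2% coverage, CNOT6L in the upper left, and CNOT8 and CNOT6 on the upper side of the genes. A lower CDS share of reads was held by 31.8% and 15.8% of genes for CNOT8 and 8.18% and 12.6% for CNOT6.

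The CNOT7 CDS has near copies elsewhere in the genome. CNOT7P1 (ENSG00000233229), a pseudogene at 69937166 to 69938017 on the minus strand of chromosome X, was 96.4% identical to the CNOT7 CDS over 852 aligned nt. CNOT7P2 (ENSG00000232185), at 115564601 to 115565432 on the plus strand of chromosome 1, was 93.8% identical over 832 nt. CNOT7P1 had 4 peaks with 195 reads in replicate 1 and 8 with 452 in replicate 2, and CNOT7P2 had 4 with 135 and 6 with 178. Under every one of these peaks but 1, the pseudogene sequence was identical to the CNOT7 CDS. The exception was a CNOT7P2 peak of 11 reads in replicate 2 with 1 mismatch. Since the files hold no reads, reads from CNOT7 and from these copies cannot be told apart there.

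Of the 858 nt of the CNOT7 CDS, 749 nt lay in at least 1 stretch of 18 nt shared with CNOT8 or a pseudogene, and 109 nt in none. The 109 nt that are not shared were covered at 88.1% in replicate 1 and 93.6% in replicate 2. The shared 749 nt were covered at 88.8% and 96.5%. The 2 parts thus differed by 0.712 and 2.95 percentage points. Coverage counts any base under a peak, and a peak can span both parts, so this does not show where the shared reads came from. In replicate 2, a CNOT7P1 peak of 24 reads and the CNOT7P2 peak of 11 reads spanned the position of the junction between coding exons 1 and 2 of CNOT7, where the gap from nt 118 of the CNOT7 peaks starts. Peak lists hold nothing on the rest of an RNA, so endogenous CNOT7 mRNA, any introduced copy of its CDS and pseudogene RNA cannot be told apart as the source of these reads.

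**Figure D4:**
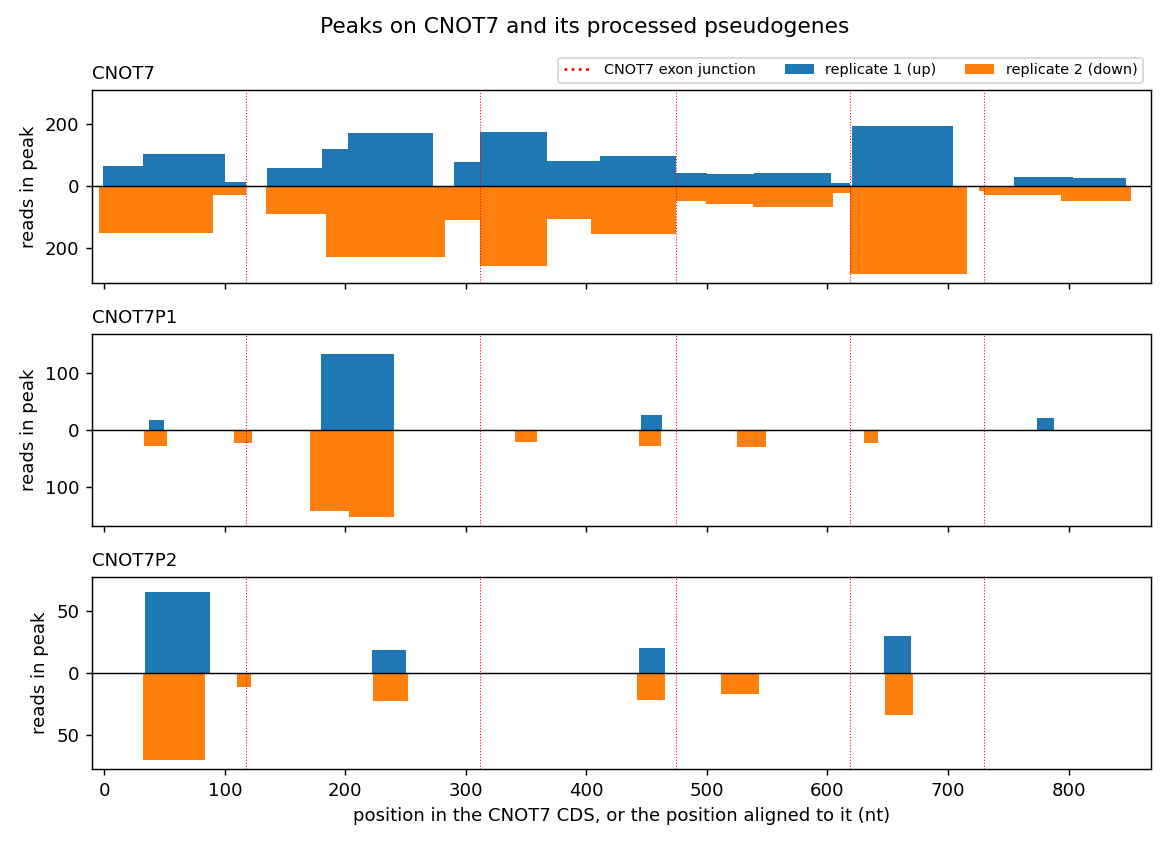
Peaks on the CNOT7 CDS (top) and on CNOT7P1 and CNOT7P2, placed at the CNOT7 position they align to (x axis, nt), with height as reads (y axis, a different scale in each panel), replicate 1 upward and replicate 2 downward, and dotted lines at CNOT7 exon junctions. The highest CNOT7P1 peaks (133 and 153 reads) and CNOT7P2 peaks (66 and 71 reads) lie where CNOT7 itself is covered, and in replicate 2 a peak of each pseudogene spans the first junction.

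CNOT8, the other CAF1 nuclease, has coding exons of the same lengths as CNOT7 apart from the last (150 nt against 129 nt), and its CDS was 70.9% identical to that of CNOT7 with no identical run over 20 nt. Its coding exons 2 (194 nt) and 4 (145 nt) had no covered base in either library, although these were covered at 82.5% or more in CNOT7. Its coding exon 5 was covered at 43.2% in replicate 1 and 46.8% in replicate 2, the highest of its coding exons in both, with a peak of 11 and 17 reads. The summit of that peak, shown above as the CNOT8 CDS stretch, lay at CDS nt 663 and 657. Coding exon 5 was also where the highest CNOT7 peaks had their summits, at nt 658 and 657. The other shared CDS regions of CNOT8 had 4 and 7 reads in coding exon 1 and 14 and 9 in the last. Its CDS coverage began at nt 14 in replicate 1 and nt 67 in replicate 2 and ended 35 and 37 nt before the end of the CDS.

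**Figure D5:**
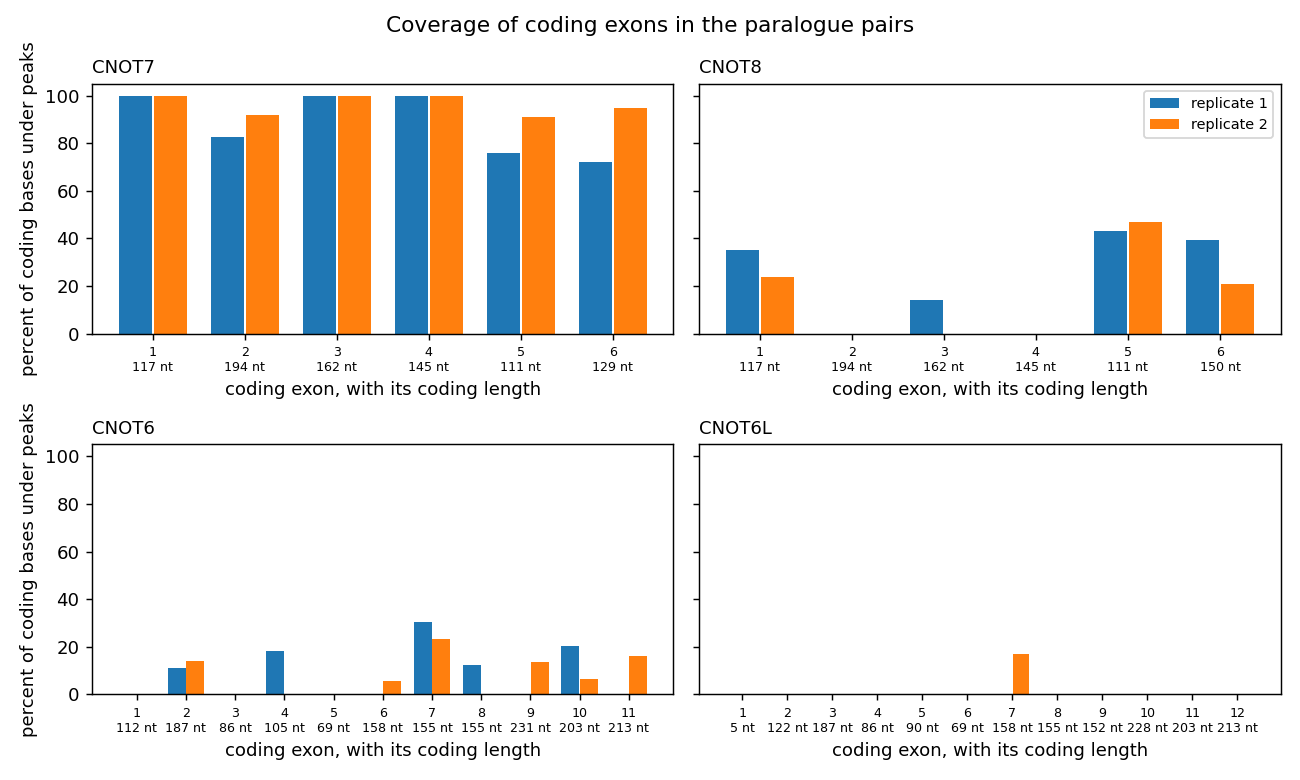
Bars give the percent of coding bases under peaks (y axis) for each coding exon (x axis, with its coding length) in each library, with CNOT7 beside CNOT8 and CNOT6 beside CNOT6L. All 6 CNOT7 exons are at 72.1% or more, no CNOT8 exon passes 46.8%, and a single CNOT6L exon has any coverage, 17.1% in replicate 2.

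Outside its CDS, CNOT8 had its highest peak in the 3′ UTR, with 29 reads in replicate 1 and 42 in replicate 2. The summits lay 473 and 471 nt after the stop codon, at the UGUAGAUA shown above, which starts at nt 472. A shared 5′ UTR region had 9 and 11 reads, with summits 34 and 42 nt upstream of the start codon. A lower shared region of 5 and 6 reads lay 1183 and 1172 nt after the stop codon. In replicate 2, a peak of 10 reads also lay outside the exons of the representative transcript.

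The CAF1 pair was compared within each library. By reads per kb of CDS, CNOT7 had 1591 and 1952 and CNOT8 had 51.2 and 37.5, ratios of 31.1 in replicate 1 and 52.0 in replicate 2. By reads per kb of 3′ UTR the order was the other way, at 1.56 and 0 in CNOT7 and 30.3 and 39.2 in CNOT8. CNOT8 was thus higher over the 3′ UTR and CNOT7 over the CDS in each library. The CDS share of exonic reads differed by 52.0 and 68.0 percentage points (59.97 ± 11.3, SD, n = 2), and the covered share of the CDS by 69.2 and 83.5 percentage points (76.4 ± 10.1, SD, n = 2). With 2 libraries, the smallest p that an exact paired two-sided test allows is 0.5, so no test was made.

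CNOT6, a CCR4 nuclease, had peaks in 5 of its 11 coding exons in replicate 1 and 6 in replicate 2. Its CDS was covered at 8.78% and 8.90%, under the medians of 13.5% and 15.6% over the 6298 genes. Only 2 CDS regions were shared, 4 and 7 reads in coding exon 2 and 9 and 6 reads in coding exon 7. Its coding exons 1, 3 and 5 had no covered base in either library. The 5′ UTR of CNOT6 held 2 shared regions, both in exon 2, with 7 and 14 reads at 332 and 318 nt upstream of the start codon and 11 and 14 reads at 263 and 266 nt upstream. In replicate 1 a further peak of 9 reads had its summit just outside exon 1 of the representative transcript.

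The 3′ UTR of CNOT6 held 136 of its 187 exonic reads in replicate 1 and 110 of 190 in replicate 2. The 5 shared regions there had their summits 60, 1241, 1800, 1899 and 3794 nt after the stop codon, in the library with more reads in each. The highest were stretch a with 20 and 26 reads, stretch b with 23 and 16, stretch d with 20 and 26 and stretch c with 14 and 12. No stretch was the highest in both libraries, since b led in replicate 1 and a and d in replicate 2, and none held any motif searched. The last summit lay at 90.2% of the 3′ UTR length in both libraries. Peaks covered 9.85% and 7.32% of its bases, and replicate 2 had no summit between 1890 and 3604 nt after the stop codon. A further 8 3′ UTR regions were listed in replicate 1 alone and 2 in replicate 2 alone.

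CNOT6L, the other CCR4 nuclease, had 1 CDS peak, of 4 reads, in coding exon 7 in replicate 2. Its other 11 coding exons had no covered base in either library. That CDS peak spans CDS nt 654 to 680, and CNOT6LP1, a pseudogene at 56005715 to 56007176 on the minus strand of chromosome 15, was 98.6% identical to the CNOT6L CDS and had a peak of 3 reads at the same place. Over the 255 nt of CNOT6L CDS that share no 18 nt stretch with another entry compared, no base was covered in either library.

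The 3′ UTR of CNOT6L held 52 of 52 exonic reads in replicate 1 and 77 of 81 in replicate 2. By length this was 7.38 and 10.9 reads per kb of 3′ UTR, against medians of 10.2 and 10.98 over the 6298 genes, so it lay below the median in replicate 1 and close to it in replicate 2. Its highest region, of 27 and 21 reads, started 8 nt after the stop codon in replicate 1 and 26 nt after it in replicate 2, and the stretch shown above lies in it. The other shared regions had 8 and 8 reads, 6 and 8, and 8 and 4, with summits 1031, 2376 and 2548 nt after the stop codon. The last summit in either library lay 2548 and 2552 nt after the stop codon, at 36.2% of a 3′ UTR of 7044 nt, and no peak was listed in the remainder. At least 90% of exonic reads fell in the 3′ UTR in both libraries in 0.984% of the 6298 genes, and CNOT6L was the only member among them. At least 50% did so in 16.9%, including CNOT6 and CNOT6L.

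The CCR4 pair differed in the same direction in both libraries, with low counts. By reads per kb of CDS, CNOT6 had 19.7 and 31.1 and CNOT6L had 0 and 2.398. The CDS share of exonic reads was higher in CNOT6 by 17.6 and 22.4 percentage points (20.04 ± 3.38, SD, n = 2), and the covered share of the CDS by 8.78 and 7.28 percentage points (8.03 ± 1.06, SD, n = 2). These values depend on small peaks. When only peaks of at least 10 reads were kept, the differences fell to 8.78 and 1.73 percentage points. By reads per kb of 3′ UTR, CNOT6 had 32.3 and 26.2 and CNOT6L had 7.38 and 10.9, ratios of 4.38 and 2.39. The CDSs of the pair were 74.0% identical with no identical run over 20 nt.

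Sequence features were searched in windows of 51 nt around the higher summit of each of the 11 shared 3′ UTR regions of the members, in transcript sense only. UGUANAUA was found in 1 of 11 windows, the CNOT8 region, and in 7.03% of 10861 windows around shared 3′ UTR summits of protein-coding genes. The AU-rich forms UAUUUAU and AUUUA, the first of which contains the second, were in none of the 11 and in 1.88% and 9.46% of all windows. Matches to the seeds of miR-101 (GUACUGU), the miR-17 family (GCACUUU) and the miR-92 family (GUGCAAU) were also in none, against 1.25%, 1.23% and 0.81% of all windows. These letters are absent from these windows and nothing more is drawn from that. Over the whole 3′ UTRs, CNOT8 had 4 UGUANAUA matches, at nt 200, 327, 472 and 1294, and the 1 at nt 472 lay under peaks in both libraries. CNOT7 had 2, at nt 45 and 1459, CNOT6L had 1, at nt 1896, and CNOT6 none, with no peak over any of them. The A and U content of the windows ran from 54.9% in the first CNOT6 region to 80.4% in a CNOT6L region.

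The genes whose profile was most like each member were taken by Euclidean distance, in percentage points, over the shares of reads in 5′ UTR, CDS and 3′ UTR and the CDS coverage in both libraries. For CNOT7 these were RPS27A at 3.69, RPL36A at 4.42 and RPL28 at 6.46, ribosomal protein genes. For CNOT8 they were MTFP1 at 7.76, UBE2Z at 10.4 and GSK3A at 12.2, and for CNOT6 they were GLCCI1 at 9.15, DUSP7 at 10.6 and SLC5A3 at 11.1. For CNOT6L they were WBP1L at 0.764, ELAVL2 at 1.07 and IPMK at 1.73. No member was among the 3 genes nearest to its paralogue. CNOT7 and CNOT8 lay 154.6 apart and CNOT6 and CNOT6L 58.1, while CNOT8 and CNOT6, which are not paralogues, were the closest members at 44.2.

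Of the 8 other CCR4-NOT subunits listed, all had a shared region and 4 had a shared 3′ UTR region. The shares were 50.4% of protein-coding genes and 27.3% of those with an annotated 3′ UTR, which 1 of the 8 lacked in its transcript. Of the 6298 genes with both UTRs annotated and at least 20 exonic reads in each library, 6284 and 4237 did, but only 6 of the 8 subunits passed that filter. The 2 subunits with the most reads were the scaffold CNOT1, with 790 reads in replicate 1 and 1632 in replicate 2, and TNKS1BP1, with 135 and 301. Over the 6 with enough reads, the median CDS share was 72.4% and 74.3%, beside 64.6% and 67.9% over all 6298 genes. None reached 80% of the CDS covered, a level that only 0.873% of the 6298 genes reached in both libraries. Their median coverage was 10.8% and 13.9%, beside 13.5% and 15.6% over all 6298 genes. TNKS1BP1 had all its exonic reads in the CDS in both libraries, but its CDS was covered at only 7.32% and 11.3%. CNOT1 had 12.6% and 16.6% of its CDS covered. Its exonic reads were near those of CNOT7 in replicate 2, at 1517 against 1675, but not in replicate 1, at 662 against 1374. By reads per kb of CDS, CNOT1 had 161.5 in replicate 2, against 1952 in CNOT7. The coverage of CNOT1 and CNOT7 was thus not compared at a like read density.

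Of 8 genes outside CCR4-NOT listed as other deadenylase genes, 5 had a shared region and 3 had a shared 3′ UTR region. Not all 8 are established deadenylases. The counts were near the 50.4% of protein-coding genes and the 27.3% of those with an annotated 3′ UTR. PDE12, a mitochondrial deadenylase, had 71 and 68 reads, and ANGEL2 had 40 and 66. Over the 3 with enough reads the median CDS share was 57.7% and 60.3%. None had 80% of its CDS covered, as only 0.873% of the 6298 genes did in both libraries.

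The labelled cell line was checked by its marker genes. All 7 HEK293T marker genes listed had peaks in both libraries, while 50.4% of all protein-coding genes had a shared region. Summed over the 7 genes, these peaks held 519 reads in replicate 1 and 672 in replicate 2. IGF2BP1 alone held 238 and 262 of them, and PAX2, the lowest, held 10 and 16. Of 6 genes that mark blood, liver, neurons or muscle, SYT1 had 22 and 17 reads, more than PAX2 in both libraries. MYH7 had 3 in replicate 2, and the others had none. Summed over distinct peaks, the libraries held 1585442 and 1663899 reads, so replicate 2 was slightly larger, with a median of 6 reads per peak in each.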

How the data were processed

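Each library came with 1 list of peaks, called per library and not pooled. Per the submitters' processing notes, cutadapt 4.2, UMI-tools 1.1.4, STAR 2.7.11 and GRCh38 were used, though their roles are not recorded. Per the deposited file names, CLIPper called the peaks on reads filtered by score, mismatches and loci matched. The version of CLIPper is not given in the sources used here, nor is its annotation. The deposited score column holds a p-value per peak from the authors' caller, every one under 0.05. The peak name holds a gene identifier and a number of reads, not normalized. A read may be counted in neighbouring peaks and at more than 1 locus. Sums over peaks are therefore not sequencing depth, which is unknown.

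The members and gene lists were chosen with earlier results of these data known. The named genes include the 4 members, pseudogenes named after them and the 3 genes nearest in profile. All 4 adaptors were named, and the 2 genes with the most reads of each other pathway list. Genes that met both the CDS coverage and the UTR share rule, and marker genes of other cell types with peaks, were named too. So were genes that met the UTR share rule with at least 1000 exonic reads in both libraries. The HEK293T markers with the most and the fewest reads were also named. Gene models and transcript sequences were those of GENCODE release 29, with 1 representative transcript per gene (best APPRIS tag, then CCDS, then longest CDS). The CDS includes the stop codon. A peak was placed by its summit, the middle of the thick interval, and coverage counted bases under any peak. Placement was tested on simulated data and recovered 1500 of 1500 peaks in 500 genes. Python 3.11.15, numpy 2.4.6, scipy 1.17.1, Biopython 1.88 and matplotlib 3.10.9 were used. Sequence identity came from global alignment in Biopython. No test between groups was possible with 1 group of 2 libraries. Alternatives were a p-value of at most 1e-05, at least 10 reads per peak, the union of all protein-coding transcripts, reads spread over the peak, overlap of at least 50% of the narrower peak, and each library left out. Sequence from chromosome 8 is not printed here.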

Additional observations from a re-analysis of the deposited data

How the results depend on the processing

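The series holds a single group, so no fit between groups with a replicate block could be made, and the paralogues were compared within each library. Of 21 values recomputed with all libraries, 16 stayed within the spread between libraries or, for counts, within 1.5 times, 5 moved and none reversed. With peaks of p at most 1e-05, the excess of CNOT6 over CNOT6L was 15.7 percentage points in CDS share and 5.08 in CDS coverage. With at least 10 reads per peak it was 8.78 and 1.73, and the shared 3′ UTR regions fell from 11 to 6, because smaller peaks were left out. Leaving out each library in turn gives the value of the other library and is no sign of stability with 2 libraries. The excess of CNOT7 over CNOT8 then ran from 52.0 to 68.0 in CDS share and from 69.2 to 83.5 in CDS coverage, and that of CNOT6 over CNOT6L from 17.6 to 22.4 and from 7.28 to 8.78. Without an input library, peak reads also reflect RNA abundance. Peaks of 3 to 10 reads give wide counting intervals, which limits what can be said of CNOT6L and of the CDS of CNOT8 and CNOT6.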

Other observations

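The adaptor proteins BTG1, BTG2, TOB1 and TOB2, which bind the CAF1 nucleases and bring CCR4-NOT to target RNAs, had peaks of their own. All 4 had a shared region in the 3′ UTR, as did 27.3% of protein-coding genes with an annotated 3′ UTR. Of the 6298 genes with at least 20 exonic reads in each library, a filter all 4 passed, 4237 had one. BTG1 had 226 reads in replicate 1 and 276 in replicate 2, with 57.1% and 64.1% of exonic reads in the 3′ UTR. BTG2 had 90 and 145 reads, with 92.2% and 89.7% in the 3′ UTR and 5 shared regions there. TOB1 had 137 and 130 reads, with 28.5% and 36.2%, and TOB2 had 94 and 161 reads, with 45.7% and 39.8%. The median 3′ UTR share of the list was 51.4% and 51.9%, beside 23.4% and 21.3% over all 6298 genes. BTG2, with 90.9% ± 1.82 (SD, n = 2), was the adaptor nearest to CNOT6L in its 3′ UTR share, and none had the CDS coverage of CNOT7, at 18.9% or less in both libraries.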
